A study of Mus musculus with 4 samples.

Results

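The circadian clock genes of treated mouse skin were examined on 4 arrays of the Affymetrix mouse PM strip format. The 10 genes were Arntl, Clock, Per1, Per2, Per3, Cry1, Cry2, Nr1d1, Nr1d2 and Dbp, and every probe set (a group of short probes that reports 1 transcript) annotated to 1 of them alone was taken. Of the 10 genes, 9 were represented, by 19 probe sets out of 45037, among 17097 genes named alone on the array. The platform annotation names no probe set for Nr1d1, which therefore has no value, and a further Per2 probe set that is shared with another gene was left out. The mice were 8-week-old C3H males whose dorsal skin was shaved and then treated topically each day. Arrays Control 1 and Control 2 held RNA of skin that received Milli-Q water as the vehicle, whereas arrays TCQA 1 and TCQA 2 held RNA of skin that received TCQA at 1%. The abbreviation stands for 3,4,5-tri-O-caffeoylquinic acid, whose quinic acid core carries caffeoyl groups. The labels date the samples to day 30 of treatment and a legend of the study to day 37. The animals were kept under 12 h of light and 12 h of dark, and the hour at which the skin was taken is not given in the sources used here. The study had 5 mice per group, and the sources do not tell whether an array held 1 mouse or several. The p-values rest on the array-to-array spread alone, which could be technical. Whole skin was used, so that fewer cells of a type and less RNA per cell cannot be told apart.

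The circadian clock is a transcriptional feedback loop that runs in nearly every cell of the skin, including keratinocytes, fibroblasts and the cells of the hair follicle. Its positive limb is the pair Arntl (also called Bmal1) and Clock, which together bind E-boxes in DNA and switch on the genes of the negative limb, Per1, Per2, Per3, Cry1 and Cry2, whose proteins return to the nucleus and block the pair. In a second loop, Nr1d1 and Nr1d2 (Rev-erb alpha and beta) are switched on by the same pair and repress Arntl, and Dbp is an output of the pair that acts on D-boxes. In tissues with a running clock, Arntl peaks when Dbp, Nr1d1 and the Per genes are low, so that Arntl and these genes move in opposite directions over the day.

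The sequence elements behind these arms are shown for 4 of the genes, as the RefSeq promoter windows of 300 bases (250 before and 50 after the annotated start, build GRCm38.p6, a C57BL/6J reference). All 4 genes were measured on the arrays. The windows shown were those with a match to an E-box (Per1 and Cry1), a D-box (Per3) or the core of the element that ROR and Rev-erb factors can bind (Arntl). The other windows of Per1 and Arntl held no match. Capitals mark matches to CACGTG or CACGTT (E-box and a variant of it), TTANGTAA (D-box), and TAGGTCA or TGGGTCA (the core of the ROR element), each searched on both strands, so that a match on the opposite strand is shown as its reverse complement.
Per1, chr11:69098699-69098998, plus strand: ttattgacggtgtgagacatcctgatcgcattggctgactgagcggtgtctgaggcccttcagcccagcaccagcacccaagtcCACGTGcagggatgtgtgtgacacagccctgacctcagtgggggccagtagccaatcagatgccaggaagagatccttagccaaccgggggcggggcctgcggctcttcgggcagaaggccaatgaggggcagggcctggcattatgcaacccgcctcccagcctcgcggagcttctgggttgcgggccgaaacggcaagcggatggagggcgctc
Cry1, chr10:85185005-85185304, minus strand: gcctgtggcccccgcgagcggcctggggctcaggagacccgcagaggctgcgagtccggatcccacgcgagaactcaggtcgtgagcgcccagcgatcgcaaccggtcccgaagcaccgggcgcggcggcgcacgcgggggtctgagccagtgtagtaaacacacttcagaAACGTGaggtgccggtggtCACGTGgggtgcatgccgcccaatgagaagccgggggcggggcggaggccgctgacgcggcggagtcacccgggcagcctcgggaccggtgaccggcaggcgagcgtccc
Per3, chr4:151044616-151044915, minus strand: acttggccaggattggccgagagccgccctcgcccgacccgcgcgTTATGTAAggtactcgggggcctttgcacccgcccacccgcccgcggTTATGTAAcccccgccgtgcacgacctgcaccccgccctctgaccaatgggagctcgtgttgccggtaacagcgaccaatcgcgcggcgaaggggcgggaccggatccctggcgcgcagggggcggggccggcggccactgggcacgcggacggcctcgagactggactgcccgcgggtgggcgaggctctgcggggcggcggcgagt
Arntl, chr7:113207261-113207560, plus strand: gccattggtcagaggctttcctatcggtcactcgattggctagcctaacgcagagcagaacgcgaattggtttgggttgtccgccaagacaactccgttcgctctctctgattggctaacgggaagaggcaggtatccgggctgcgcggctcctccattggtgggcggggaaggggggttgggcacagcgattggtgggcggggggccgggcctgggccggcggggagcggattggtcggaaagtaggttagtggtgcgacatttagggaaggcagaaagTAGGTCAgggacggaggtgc
Windows were found for 9 of the 10 genes, 13 windows in all, and Per2 is not in that table. CACGTG stood in 2 of the 13 windows and in 7.15% of all 32851 windows, CACGTT in 3 of 13 and 4.68%, TTANGTAA in 1 of 13 and 2.32%, TAGGTCA in 1 of 13 and 2.61%, and TGGGTCA in 0 of 13 and 3.98%. The 2 D-box matches of Per3 began 205 and 158 bases before the start, and the Arntl match began 30 bases after it. A match describes the letters of the window only.

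For 16 of the 19 clock gene probe sets, both control arrays differed more from each other than the treatment groups did. The share of all probe sets that did so was not computed. Control 1 stood apart over the whole array (Pearson's r with Control 2 of 0.413), so the count is not read as a trait of the clock genes. On Control 1, Nr1d2, Dbp, Per1, Per2 and Per3 each had a probe set at least 2 log2 units above its Control 2 value, while the brightest probe sets of Arntl and Clock lay below theirs. Other probe sets of these genes did not share this pattern. The second of Nr1d2 and 1421086_PM_at and 1460662_PM_at of Per3 lay below Control 2, and the second of Per2 was nearly level with it. Clock 1418659_PM_at and Arntl 1425099_PM_a_at lay above it. Over Control 2, TCQA 1 and TCQA 2 the range was under 0.5 log2 units for 17 of 19. It was at most 1 log2 unit for 18 of 19 (94.7%), and likewise for 94.4% of all probe sets, so this closeness was not particular to the clock genes. With Control 1 included, the median of the negative limb was lower and that of the positive limb higher in TCQA-treated skin, by less than the spread between arrays, and without Control 1 the difference between the limbs changed sign. No clock gene probe set passed limma at an adjusted p of 0.05 in either analysis.

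**Figure D1:**
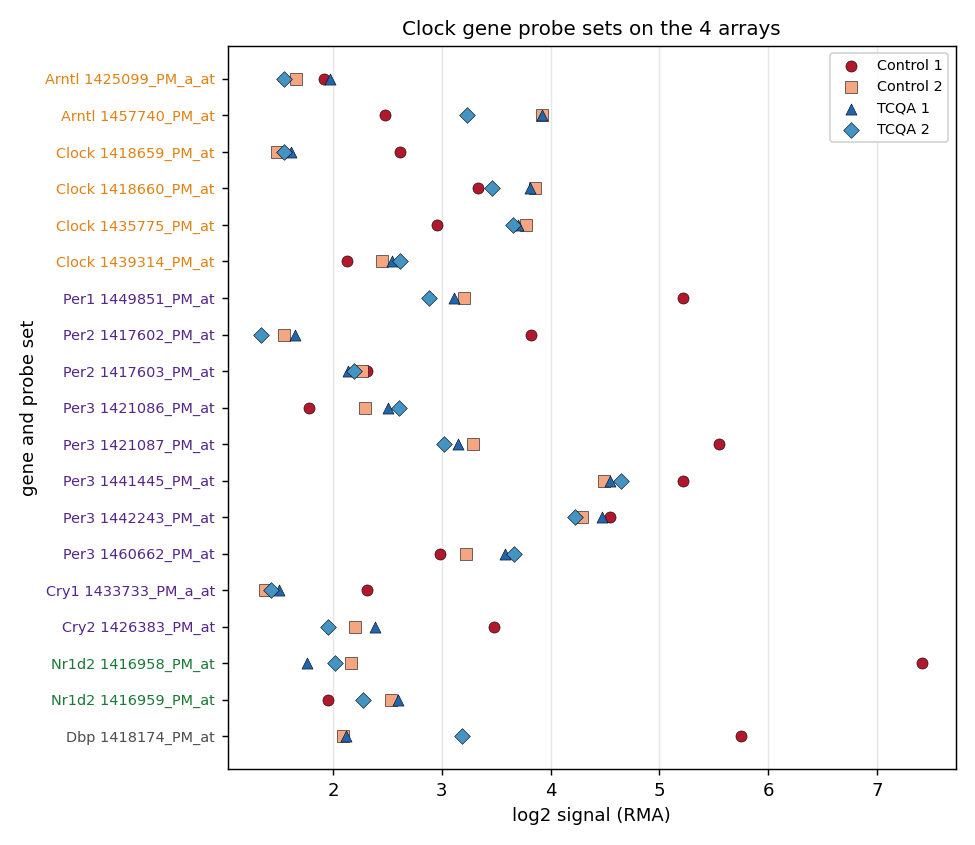
Log2 signal (x axis) of the 19 clock gene probe sets (y axis) on the 4 arrays, 1 symbol per array, with labels in orange for the positive limb, purple for the negative limb, green for Nr1d2 and grey for Dbp. Control 1 stands far to the right for Nr1d2 (7.42), Dbp (5.75), Per3 (5.55) and Per1 (5.22). The other 3 arrays cluster on these probe sets except for Dbp, where TCQA 2 (3.18) lies above Control 2 (2.09) and TCQA 1 (2.12).

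Control 1 stood apart from the other 3 arrays over the whole array, and this bears on every value below. Pearson's r with Control 2 over the 45037 probe sets was 0.413 for Control 1, 0.956 for TCQA 1 and 0.884 for TCQA 2, as a description of arrays that share their probes. A log2 value of 8 was reached by 522 probe sets on Control 1 and by 23 to 31 on each of the others. Olfactory receptor genes, most of which are expressed in the olfactory epithelium, served as a guide to background brightness. The 95th percentile of their 44 probe sets was 3.23 (Control 1), 4.65 (Control 2), 4.29 (TCQA 1) and 4.48 (TCQA 2). Of the 9 epidermal markers listed (Krt5, Krt14, Krt1, Krt10, Dsp, Dsg1a, Lor, Krtdap and Trp63), 8 exceeded that guide on Control 1, against 1 (Control 2), 1 (TCQA 1) and 2 (TCQA 2), so that the defining markers of the labelled tissue were largely not above background brightness on 3 of the 4 arrays.

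The clock genes followed the same division. On Control 1, 9 of the 19 clock gene probe sets exceeded the olfactory guide, against 0 (Control 2), 2 (TCQA 1) and 1 (TCQA 2). The shares of all probe sets above the guide were 28.3% (Control 1), 3.98% (Control 2), 6.68% (TCQA 1) and 4.15% (TCQA 2). The 3 readings above the guide outside Control 1 all belonged to Per3. By this guide, most clock gene signals outside Control 1 were not above background brightness, and differences between those arrays are differences of dim signals.

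**Figure D2:**
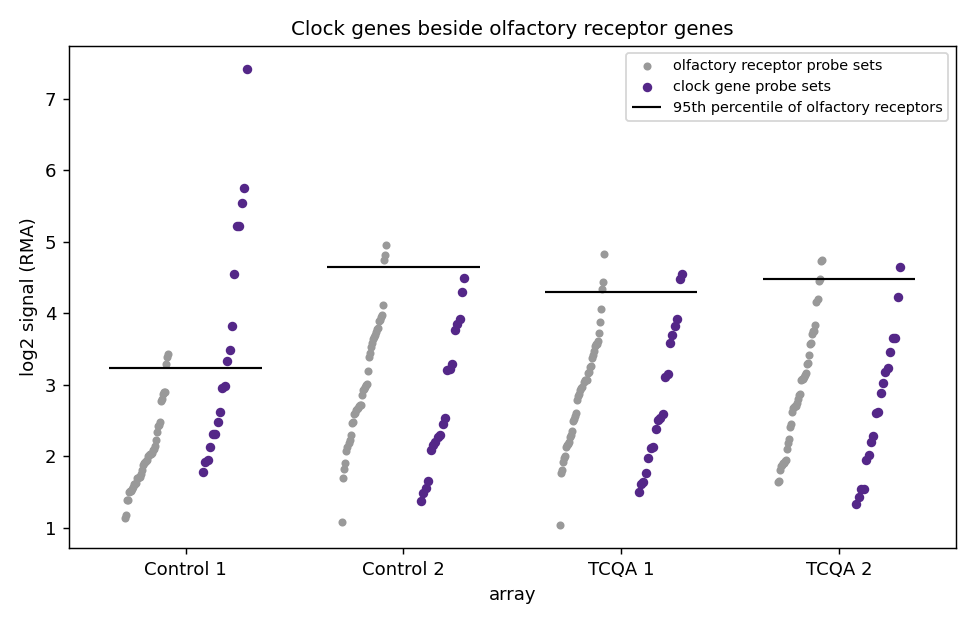
Log2 signal (y axis) of the 44 olfactory receptor probe sets (grey) and of the 19 clock gene probe sets (purple) on each array (x axis), each sorted by value, with the 95th percentile of the olfactory receptors as a black line. On Control 1, 9 clock gene probe sets lie above the line, and on the other arrays 0 to 2 do.

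Markers of several other tissues were also brightest on Control 1. All 8 skeletal muscle markers exceeded the guide there, against 1 (Control 2), 1 (TCQA 1) and 0 (TCQA 2), and their summed log2 value was 83.5 (Control 1), 19.6 (Control 2), 19.9 (TCQA 1) and 22.4 (TCQA 2). For the epidermal list the sums were 61.9 (Control 1), 24.5 (Control 2), 24.0 (TCQA 1) and 27.7 (TCQA 2). Of 3 adipocyte markers measured, 3 exceeded the guide on Control 1, against 0 (Control 2), 1 (TCQA 1) and 0 (TCQA 2). Of 6 fibroblast markers the counts were 4, 0, 1 and 0 in the same order of arrays, of 4 liver markers 4, 0, 0 and 1, of 6 immune markers 4, 1, 3 and 3, and of 4 endothelial markers 0, 0, 1 and 1. No melanocyte marker of 5 exceeded the guide on any array, and of 7 markers of the growing hair follicle 1 did so on Control 1 and 0 on the others. All 5 genes of a list of glucocorticoid-induced genes (Tsc22d3, Fkbp5, Sgk1, Zbtb16 and Klf9), a hormone signal that also acts on Per1, exceeded it on Control 1, against 1 (Control 2), 2 (TCQA 1) and 1 (TCQA 2). No marker was at 0 on an array. The part of cell composition, of hormone and of array quality in the clock gene differences was not tested.

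Arntl, the activator whose loss stops the clock, was read by 2 dim probe sets, and neither exceeded the olfactory guide on any array. Its brighter probe set (1457740_PM_at) had log2 values of 2.48 (Control 1), 3.92 (Control 2), 3.92 (TCQA 1) and 3.23 (TCQA 2). Control 2 and TCQA 1 were level, TCQA 2 was lower, and Control 1 was lowest, so the groups overlapped. The median of the olfactory receptor probe sets was likewise lowest on Control 1, at 1.94 (Control 1), 2.95 (Control 2), 2.96 (TCQA 1) and 2.86 (TCQA 2), and the part of background in the order of Arntl was not tested. Control skin averaged 3.20 ± 1.02 and TCQA-treated skin 3.58 ± 0.49 (mean ± SD, n = 2 each), a log2 fold change (TCQA minus control) of 0.38 (SE, the standard error, 0.62, limma adjusted p = 0.93), which was smaller than the gap between both control arrays. Without Control 1 the log2 fold change was -0.34 (SE 0.38, limma adjusted p = 1). The dimmer probe set (1425099_PM_a_at) had 1.92 (Control 1), 1.66 (Control 2), 1.97 (TCQA 1) and 1.55 (TCQA 2). These dim values gave a log2 fold change of -0.03, of 0.10 without Control 1 and of 0.18 without TCQA 2.

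Clock, the partner of Arntl, was read by 4 probe sets that did not move together. The brightest (1418660_PM_at) had log2 values of 3.34 (Control 1), 3.85 (Control 2), 3.81 (TCQA 1) and 3.46 (TCQA 2). Probe set 1435775_PM_at had 2.95 (Control 1), 3.77 (Control 2), 3.70 (TCQA 1) and 3.65 (TCQA 2). For 1439314_PM_at the values were 2.13 (Control 1), 2.45 (Control 2), 2.54 (TCQA 1) and 2.62 (TCQA 2). On these 3 probe sets Control 1 was the lowest array. The last probe set (1418659_PM_at) had the opposite order, with 2.62 (Control 1), 1.48 (Control 2), 1.62 (TCQA 1) and 1.55 (TCQA 2). Their log2 fold changes, in the order given, were 0.04, 0.32, 0.29 and -0.47 (adjusted p of 0.92 to 0.99 from limma), and without Control 1 they were -0.22, -0.09, 0.13 and 0.10. Only 1439314_PM_at kept its sign, and it was the single probe set of the positive limb whose groups did not overlap. The value of 1418660_PM_at also turned to -0.13 without TCQA 1 and to -0.04 when each array was centred on its median.

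Per1, a period gene that light and glucocorticoid signals induce, was high on Control 1. Its probe set (1449851_PM_at) had log2 values of 5.22 (Control 1), 3.21 (Control 2), 3.12 (TCQA 1) and 2.88 (TCQA 2). Both TCQA arrays lay below both control arrays, and all arrays but Control 1 lay within 0.33 of each other. Control skin averaged 4.21 ± 1.42 and TCQA-treated skin 2.999 ± 0.17 (mean ± SD, n = 2 each), a log2 fold change of -1.22 (SE 0.75, limma adjusted p = 0.92). Without Control 1 it was -0.21 (SE 0.29, limma adjusted p = 1).

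Per2, the period protein that anchors the repressor complex, was read by 2 probe sets. One (1417602_PM_at) had log2 values of 3.82 (Control 1), 1.55 (Control 2), 1.65 (TCQA 1) and 1.33 (TCQA 2), so that Control 2 lay between both TCQA arrays. The other (1417603_PM_at) had 2.31 (Control 1), 2.26 (Control 2), 2.14 (TCQA 1) and 2.20 (TCQA 2), with both TCQA arrays below both control arrays by small margins. The log2 fold changes were -1.20 (SE 0.83) and -0.12 (SE 0.32), with adjusted p = 0.92 and 0.95 from limma, and without Control 1 they were -0.06 and -0.10. The large difference of the first rested on Control 1, and the second was small in both analyses.

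Per3, the period gene that is dispensable for the core rhythm, had 5 probe sets with 3 kinds of pattern. Probe set 1421087_PM_at had log2 values of 5.55 (Control 1), 3.29 (Control 2), 3.15 (TCQA 1) and 3.02 (TCQA 2), with both TCQA arrays lower and a log2 fold change of -1.33 (SE 0.82, limma adjusted p = 0.92). The brightest, 1441445_PM_at, had 5.22 (Control 1), 4.49 (Control 2), 4.54 (TCQA 1) and 4.64 (TCQA 2). Probe set 1442243_PM_at had 4.55 (Control 1), 4.29 (Control 2), 4.47 (TCQA 1) and 4.23 (TCQA 2). On both of these the groups overlapped, and the log2 fold changes were -0.26 and -0.07. A further quantile normalization turned these to 0.47 and 0.46, leaving out Control 1 turned them to 0.11 and 0.06, and leaving out TCQA 2 turned the second to 0.05. The remaining pair had Control 1 lowest and both TCQA arrays above both control arrays. Probe set 1421086_PM_at had 1.78 (Control 1), 2.29 (Control 2), 2.501 (TCQA 1) and 2.60 (TCQA 2), and 1460662_PM_at had 2.98 (Control 1), 3.22 (Control 2), 3.58 (TCQA 1) and 3.66 (TCQA 2). Their log2 fold changes were 0.51 and 0.52 (standard errors 0.36 and 0.33, adjusted p = 0.92 from limma for both), and 0.26 and 0.40 without Control 1. For 1460662_PM_at this last difference exceeded the gap of 0.08 between both TCQA arrays (SE 0.28, limma adjusted p = 1). Within Per3 the probe sets therefore differed in direction, with -1.33 and 0.52 at the ends.

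Cry1 and Cry2, the cryptochromes that block the Arntl and Clock pair, were each read by 1 probe set. That of Cry1 exceeded the olfactory guide on no array, and that of Cry2 on Control 1 alone. Cry1 (1433733_PM_a_at) had log2 values of 2.31 (Control 1), 1.38 (Control 2), 1.505 (TCQA 1) and 1.43 (TCQA 2). Cry2 (1426383_PM_at) had 3.48 (Control 1), 2.20 (Control 2), 2.39 (TCQA 1) and 1.95 (TCQA 2). Control 1 was highest for both, Control 2 was lowest for Cry1, and Control 2 lay between the TCQA arrays for Cry2. The log2 fold change of Cry1 was -0.38 (SE 0.45) and that of Cry2 was -0.67 (SE 0.55), both with adjusted p = 0.92 from limma. Without Control 1 they were 0.09 and -0.03.

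Nr1d2, the nuclear receptor that represses Arntl, held the largest difference among the clock genes on 1 of its 2 probe sets. Probe set 1416958_PM_at had log2 values of 7.42 (Control 1), 2.16 (Control 2), 1.76 (TCQA 1) and 2.02 (TCQA 2). Both TCQA arrays were lower than both control arrays, and the gap between both control arrays was 5.26. Control skin averaged 4.79 ± 3.72 and TCQA-treated skin 1.89 ± 0.18 (mean ± SD, n = 2 each), a log2 fold change of -2.90 (SE 1.78, limma adjusted p = 0.92). Without Control 1 it was -0.27 (SE 0.30, limma adjusted p = 1). The second probe set (1416959_PM_at) had 1.95 (Control 1), 2.53 (Control 2), 2.60 (TCQA 1) and 2.28 (TCQA 2), with Control 1 lowest, a log2 fold change of 0.20 and one of -0.10 without Control 1.

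Dbp, the clock output that activates D-box genes, was the clock gene with the widest range outside Control 1. Its probe set (1418174_PM_at) had log2 values of 5.75 (Control 1), 2.09 (Control 2), 2.12 (TCQA 1) and 3.18 (TCQA 2). TCQA 2 was 1.06 above TCQA 1, while TCQA 1 and Control 2 were nearly level. Control skin averaged 3.92 ± 2.59 and TCQA-treated skin 2.65 ± 0.75 (mean ± SD, n = 2 each), a log2 fold change of -1.26 (SE 1.31, limma adjusted p = 0.92). Without Control 1 it turned to 0.56 (SE 0.49, limma adjusted p = 1), which is less than the gap between both TCQA arrays.

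Counted over all 19 probe sets, 7 were higher and 12 were lower in the TCQA mean with the 4 arrays, and 9 were higher and 10 lower without Control 1. Among all 45037 probe sets, 61.1% were higher with the 4 arrays and 46.7% without Control 1. The sign differed between both analyses for 10 of the 19 clock gene probe sets (52.6%) and for 40.1% of all probe sets. At an adjusted p under 0.05, limma called 0 of the 19, and 0% of all probe sets, with the 4 arrays, and no clock gene probe set had an unadjusted p under 0.05. Without Control 1 it likewise called 0 of the 19 and 0% of all, again with 0 of the 19 at an unadjusted p under 0.05. The shares of all probe sets at an unadjusted p under 0.05 alone are not given here. The counts at that level are therefore not read as traits of the clock genes. The methods name a 2-fold change for the arrays and a p of 0.05 as the general level. By 2-fold alone, 5 of the 19 passed with the 4 arrays (12.4% of all probe sets) and 0 of the 19 without Control 1 (0.535% of all). By 2-fold joined with an unadjusted p no higher than 0.05, 0 of the 19 passed with the 4 arrays, where 0.258% of all probe sets did, and 0 of the 19 passed without Control 1, where 0.302% did. Without Control 2, so that Control 1 alone stood for the control, 6 of the 19 passed an adjusted p of 0.05, all lower with TCQA, in a fit that called 23.4% of all probe sets and 16.1% as lower. These were 1449851_PM_at of Per1, 1417602_PM_at of Per2, 1421087_PM_at of Per3, 1426383_PM_at of Cry2, 1416958_PM_at of Nr1d2 and 1418174_PM_at of Dbp, and 8 of the 19 passed the joint rule, where 30% of all probe sets did. With so few arrays a p-value that misses a threshold does not show that a gene was unchanged.

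Both TCQA arrays lay above both control arrays for 3 of the 19 probe sets, where 17.9% of all probe sets did so, and below both for 4 of the 19, where 10.9% did. Against Control 2 alone, both TCQA arrays were higher for 7 of the 19 (27.2% of all probe sets) and lower for 6 of the 19 (33.8% of all). The group difference fell short of the gap between both control arrays for 16 of the 19, and without Control 1 it was smaller than the gap between both TCQA arrays for 9 of the 19. For these gap counts the shares of all probe sets were not computed, so they are not read as traits of the clock genes. Without Control 1, the standard errors ran from 0.28 to 0.49 and the log2 fold changes from -0.34 for Arntl to 0.56 for Dbp, all short of 2-fold.

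**Figure D3:**
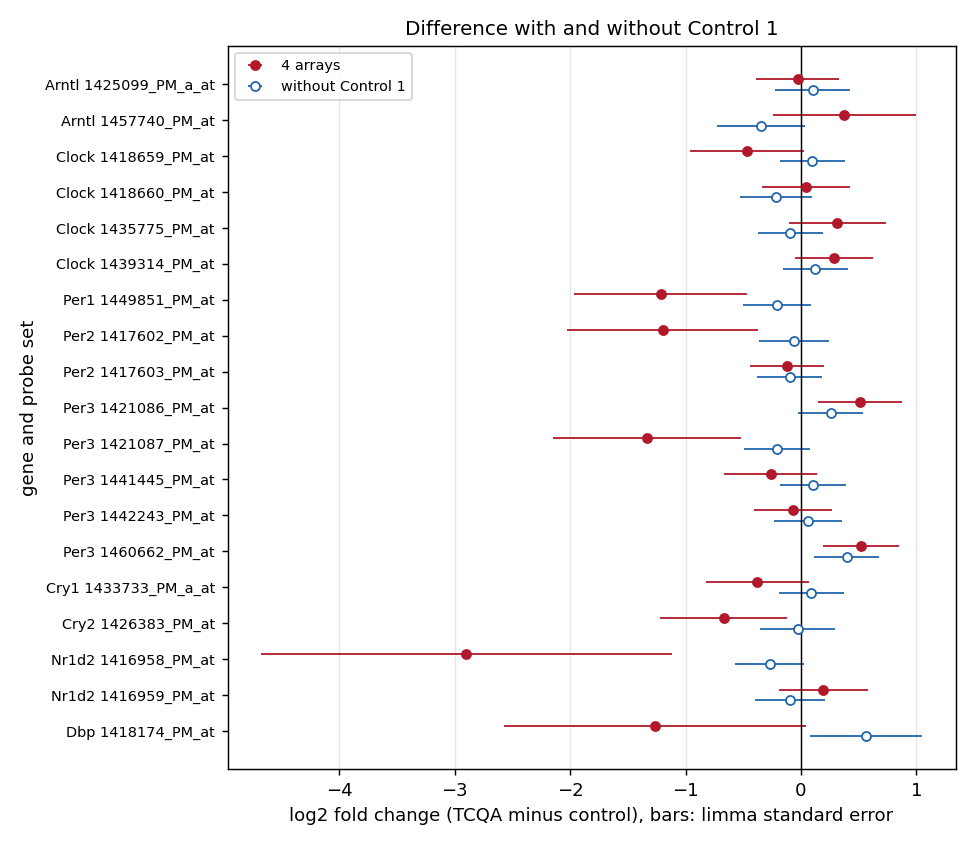
Log2 fold change, TCQA minus control (x axis), of the 19 clock gene probe sets (y axis) from 4 arrays (filled red) and without Control 1 (open blue), with bars for the limma standard error. The red points run from -2.90 for Nr1d2 to 0.52 for Per3, and the blue points lie between -0.34 and 0.56.

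The limbs were then set against each other, using for each gene its probe set of highest mean, and each probe set taken as its deviation from its own mean over the 4 arrays. For Per2 that rule took 1417603_PM_at, which hardly differed between arrays. On Control 1 the positive limb (Arntl and Clock) had a median deviation of -0.59 and the negative limb (Per1, Per2, Per3, Cry1 and Cry2) one of 0.66. On Control 2 these were 0.38 and -0.28, on TCQA 1 0.37 and -0.15, and on TCQA 2 -0.16 and -0.23. The positive limb minus the negative limb was thus -1.25 (Control 1), 0.66 (Control 2), 0.52 (TCQA 1) and 0.07 (TCQA 2). The negative limb median was above the positive limb median on Control 1. Both limbs here rest largely on probe sets at background brightness. In the positive limb, that of Arntl exceeded the olfactory guide on no array and that of Clock on Control 1 alone. In the negative limb, those of Cry1 and Per2 exceeded it on no array, and those of Per1 and Cry2 on Control 1 alone. Only that of Per3 exceeded it on 3 arrays. The negative limb median was the value of Cry1 on every array. The olfactory median was itself lowest on Control 1. The part of background in the limb contrast was not tested. Nr1d2 and Dbp deviated by 4.08 and 2.46 on Control 1, and Dbp by -1.20 on Control 2, -1.16 on TCQA 1 and -0.10 on TCQA 2.

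As a difference between the groups, the median log2 fold change was 0.21 over the 2 genes of the positive limb. It was -0.38 over the 5 genes of the negative limb, beside 0.08 over all 17097 genes. The -0.38 was the value of Cry1, whose probe set exceeded the olfactory guide on no array. The limb difference was 0.59, less than the pooled SD of 0.98 between arrays of a group (n = 2 per group). Without Control 1 the medians were -0.28 for the positive and -0.03 for the negative limb, beside -0.03 over all genes, and the limb difference turned to -0.25. Without TCQA 1 the positive limb had a median of -0.05, and the limb difference was 0.36. Without Control 2 the limb difference was 1.54, and without TCQA 2 it was 0.81. Limb medians are given as descriptions, with no test.

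Over all probe sets of each limb the picture was less uniform than over 1 probe set per gene. Control 1 was the highest array for 8 of the 10 negative limb probe sets and the lowest for the other 2, both of Per3. It was the lowest for 4 of the 6 positive limb probe sets and the highest for 1, of Clock. Over all probe sets of the array, Control 1 was the highest array for 28.0% and the lowest for 58.3%. The median log2 fold change over the 6 positive limb probe sets was 0.17 with the 4 arrays and 0.0017 without Control 1, and that over the 10 negative limb probe sets was -0.32 with the 4 arrays and 0.02 without Control 1.

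**Figure D4:**
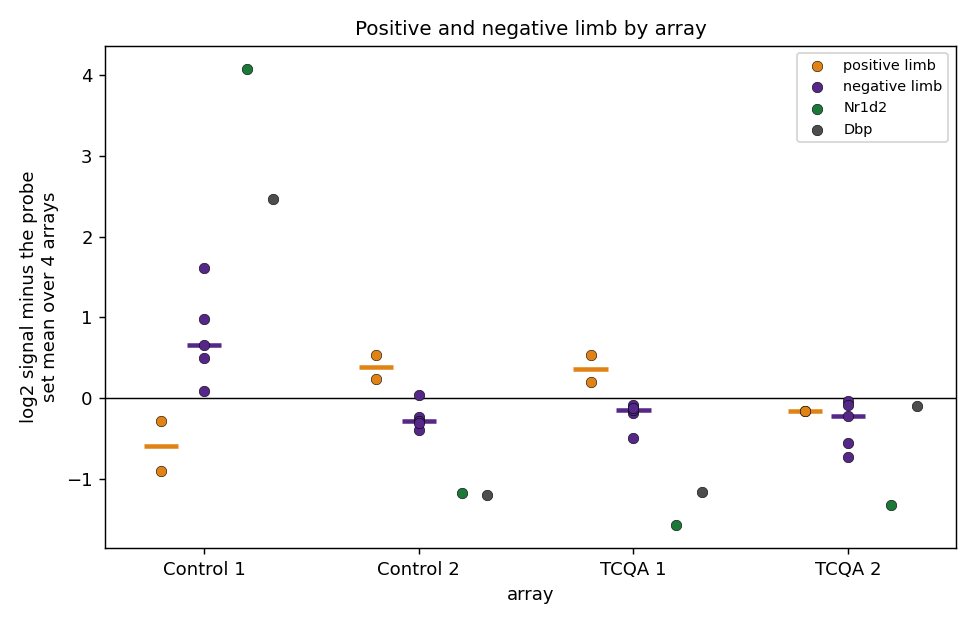
Log2 signal minus the mean of the same probe set over 4 arrays (y axis) for each array (x axis), 1 point per gene with its brightest probe set, and bars for the limb medians. On Control 1 the negative limb, Nr1d2 and Dbp lie above the positive limb, on Control 2 and TCQA 1 below it, and on TCQA 2 both limb medians lie close together (-0.16 and -0.23).

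The other genes of the clock were read from a list of 23 genes, of which 18 are named alone on the array. With 1 probe set per gene, 8 were higher and 10 lower in the TCQA mean (median log2 fold change -0.13), and the same split of 8 and 10 was found without Control 1, with a median of -0.03. None of the 18 passed an adjusted p of 0.05 in limma in either analysis, and by the joint rule 0 of the 18 passed with the 4 arrays (0.31% of all genes) and 1 of the 18, Gsk3b, without Control 1 (0.275% of all genes). Both TCQA arrays lay above both control arrays for 4 of the 18 (16% of all genes on the same basis) and below both for 5 of the 18 (13.6% of all genes). The list's median was 0.02 when the probe set of each gene was chosen without Control 1.

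Gsk3b, a kinase that phosphorylates several clock proteins, had log2 values of 6.26 (Control 1), 3.59 (Control 2), 2.57 (TCQA 1) and 2.60 (TCQA 2) on its brightest probe set of 4. Both TCQA arrays were lower than both control arrays, and the log2 fold change was -2.35 (SE 0.95, limma adjusted p = 0.92). Without Control 1 it was -1.01 (SE 0.28, limma adjusted p = 1, unadjusted p = 0.014). The other 3 probe sets of Gsk3b had log2 fold changes of 0.32, -0.22 and -0.68, and of 0.20, -0.26 and -0.08 without Control 1. A 2-fold difference was thus reached on 1 of 4 probe sets. On those with -0.22 and -0.68 both TCQA arrays also lay below both control arrays, with smaller differences. On the probe set with 0.32 both TCQA arrays lay above both control arrays.

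Tef, a D-box activator of the same family as Dbp, had 8.27 (Control 1), 5.76 (Control 2), 5.49 (TCQA 1) and 4.95 (TCQA 2) with its brighter probe set. The order of arrays was Control 1, Control 2, TCQA 1 and TCQA 2 from high to low, and the log2 fold change was -1.80 (SE 0.91, limma adjusted p = 0.92) and -0.55 without Control 1. Its second probe set had 0.51 and, without Control 1, 0.03. Hlf, the third member of that family, had 5.17 (Control 1), 4.11 (Control 2), 3.72 (TCQA 1) and 3.69 (TCQA 2), which gave a log2 fold change of -0.94, or -0.40 without Control 1. Hlf was singled out after its values were seen, as the relative of Dbp and Tef. On these brighter probe sets of Tef and Hlf both TCQA arrays lay below Control 2. For Dbp both lay above it, with TCQA 1 (2.12) nearly level with Control 2 (2.09). The second Tef probe set had Control 2 (3.52) between TCQA 1 (3.65) and TCQA 2 (3.47), and the second of Hlf is not given here.

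Usp2, a deubiquitinase whose gene follows the clock, had 7.55 (Control 1), 3.93 (Control 2), 4.08 (TCQA 1) and 4.15 (TCQA 2), and its log2 fold change of -1.63 turned to 0.18 without Control 1. Its other probe set had -2.30 and 0.07. Fbxw11, a ubiquitin ligase subunit that acts on the Per proteins, had 5.10 (Control 1), 2.33 (Control 2), 2.38 (TCQA 1) and 2.19 (TCQA 2), with log2 fold changes of -1.43 with the 4 arrays and -0.05 without Control 1. The other Fbxw11 probe set had Control 1 lowest, with 2.01 (Control 1), 2.93 (Control 2), 2.70 (TCQA 1) and 2.79 (TCQA 2), and a log2 fold change of 0.28. Both Usp2 probe sets and 1 of 2 for Fbxw11 were thus highest on Control 1. Without Control 1, the brightest probe set of Btrc, the relative of Fbxw11, had a log2 fold change of -0.44 (0.26 with the 4 arrays), and the other 4 Btrc probe sets ran from -0.31 to 0.28. For Csnk1e, a kinase of the Per proteins, the brightest had 0.40 (-0.49 with the 4 arrays), and the other 2 had -0.17 and -0.10. For neither gene did the probe sets share a direction.

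**Figure D5:**
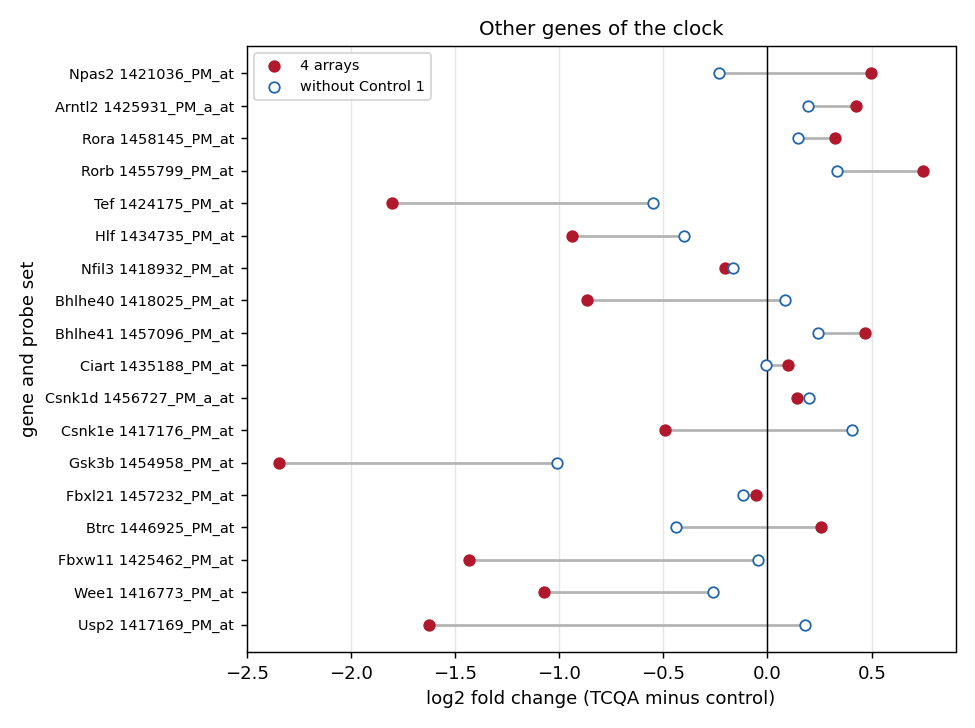
Log2 fold change, TCQA minus control (x axis), of the 18 other clock genes (y axis, brightest probe set) with 4 arrays (filled red) and without Control 1 (open blue), joined by a line. Gsk3b moves from -2.35 to -1.01 and Usp2 from -1.63 to 0.18.

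The genes whose profile over the 4 arrays lay nearest to Arntl and to Dbp were sought among 8816 genes with a range of at least 1 log2 unit, by the Euclidean distance after subtracting each probe set's mean. For Arntl they were Cd180, Trpd52l3 and 5730552O08Rik, at distances of 0.03, 0.04 and 0.05 log2 units. For Dbp they were Ube2q2, Celsr1 and Ciao2a, at 0.16, 0.18 and 0.21. Cd180 had log2 values of 2.53 (Control 1), 4.004 (Control 2), 3.97 (TCQA 1) and 3.32 (TCQA 2), and Ube2q2 had 5.14 (Control 1), 1.37 (Control 2), 1.29 (TCQA 1) and 2.45 (TCQA 2). No clock gene was among these 6. Clock, Per2, Per3 and Cry1 could not be, since their brightest probe sets had a range of less than 1 log2 unit. With these left out, and only 3 taken from 8816 candidates for each gene, the absence of clock genes does not tell whether they vary together.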

How the data were processed

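Total RNA of treated dorsal skin was hybridised to 4 arrays of the Affymetrix mouse PM strip format (2 per group). Each probe set has 1 log2 value per array, deposited by the authors after RMA (background correction, normalization and summary of the probes). Expression Console and Transcriptome Analysis Console (version 4.0.1 in the methods) are the programs that the submitters' processing notes list. Whether the arrays were normalized together is not given in the sources used here. No scanner files were used, and the number of arrays limits the precision.

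Control probe sets were left out (45037 remained), and 28898 were named for 1 gene through the platform annotation. For the comparison of TCQA with control, lmFit and eBayes of limma 3.58.1 (R 4.3.3) were run two-sided on all 45037, with p-values adjusted by Benjamini-Hochberg, no filter and no further normalization. The fit left 2 residual degrees of freedom, or 1 without an array. With 1 array left out, the remaining array of that group was taken to have the spread of the other group. The smallest p of an exact permutation test with 2 arrays a group is 0.333. The limma step was tested on simulated data.

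The members and lists were chosen with earlier results of these data known. Named genes were all members, the 4 other clock genes with the largest log2 fold change with and without Control 1, and the 3 nearest profiles to Arntl and to Dbp. No columns were left unmapped, and no arrays were identical. The alternatives were quantile normalization, median centring, a filter on dim probe sets, limma's trend and robust options, the methods' unmoderated test, a replicate block, leaving out each array, other choices of probe set and a negative limb with Nr1d2.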

Additional observations from a re-analysis of the deposited data

How the results depend on the processing

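No alternative that kept all 4 arrays called a clock gene probe set. At an adjusted p of 0.05 in limma or the unmoderated test, none of them called any probe set of the array. That count therefore cannot set the clock genes apart from the rest. By the joint rule they called from 19 of 22519 probe sets (dim probe sets left out) to 282 of 45037 (quantile normalization). Without Control 2, 6 of the 19 were called at an adjusted p of 0.05 in limma, where 23.4% of all probe sets were, and 8 of the 19 by 2-fold with an unadjusted p of 0.05, where 30% of all were. Leaving out each array in turn gave 0 to 6 and 0 to 8 calls, and the other 3 omissions gave 0. Over these omissions the log2 fold change ran from -0.24 to 0.18 for Arntl 1425099_PM_a_at, -0.34 to 1.10 for Arntl 1457740_PM_at, -1.03 to 0.10 for Clock 1418659_PM_at, -0.22 to 0.30 for Clock 1418660_PM_at, -0.09 to 0.73 for Clock 1435775_PM_at, -0.63 to 0.11 for Per3 1441445_PM_at, -0.20 to 0.06 for Per3 1442243_PM_at, -0.84 to 0.09 for Cry1, -0.10 to 0.49 for Nr1d2 1416959_PM_at and -3.09 to 0.56 for Dbp. The positive limb median ran from -0.28 to 0.70, the negative limb median from -0.84 to -0.03, the limb difference from -0.25 to 1.54 and the median of the other clock genes from -0.17 to -0.03. Median centring turned Clock 1418660_PM_at to -0.04, and quantile normalization turned Per3 1441445_PM_at to 0.47 and Per3 1442243_PM_at to 0.46. The median of the other clock genes was -0.24 after quantile normalization, -0.22 after median centring, -0.49 with dim probe sets left out, -0.54 as the mean of each gene's probe sets and 0.02 with the probe set chosen without Control 1. With dim probe sets left out, the negative limb median was -0.74 (2 genes left) and the limb difference 0.95, and with the mean of each gene's probe sets they were -0.66 and 0.77, where leaving out Control 1 gave a limb difference of -0.04. The cause of these changes was not tested. With 2 arrays per group and most clock gene signals outside Control 1 at background brightness, small differences were not detectable.

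The labels number the arrays 1 and 2 in each group but do not say that the numbers pair them. Same-numbered deviations correlated at -0.124. By adjusted p, a replicate block called 0 of the 19 clock gene probe sets and 0 of all 45037. The crossed pairing, added after seeing the data, also called 0 of the 19 and 0 of all 45037. Since neither fit called any probe set, these counts cannot set the clock genes apart or tell whether the arrays were paired.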
